A study of Mus musculus with 2 samples.

Results

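The microRNA genes Mir132, Mir212 and Mir137, which are studied for their part in neuronal activity and plasticity, were read out of 2202 microRNA genes counted in mouse hippocampus. They were taken by gene symbol, after the gene identifiers of the count tables had been named with GENCODE annotation M21. All 3 were found in both libraries. The series is 1 group of 2 microRNA sequencing libraries made from total RNA; the labels put the size range below 30. The labels give the tissue as layer of hippocampus, without naming the layer. It came from male B6CASTF1/J mice, an F1 hybrid strain, aged 18 to 20 months, with no treatment or engineered allele in the labels. The labels number the libraries as biological replicates 1 and 2, give them separate tissue entries and 1 shared donor entry, and do not say that they came from separate animals. Differences between them may therefore be technical, and the series has no second age, sex or condition.

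A microRNA is a short RNA cut from a hairpin precursor, and it lowers the translation or stability of messenger RNAs that pair with its seed, bases 2 to 8 of the mature strand. The neighbouring genes Mir212 and Mir132 are transcribed together, and in rodent neurons the transcription factor CREB induces them after synaptic activity or exposure to the growth factor BDNF. Their products are known for effects on dendrite growth, spine shape and plasticity in the hippocampus. Mir137 is enriched in the brain, takes part in neuronal differentiation and synapse function, and its human counterpart lies at a locus associated with schizophrenia.

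The mature strands show how the 3 genes relate, and they are printed here with the seed in capitals because the seed sets which messages a microRNA can pair with. Sequences are from RefSeq on GRCm38.p6, 5′ to 3′, and all 3 genes matched an entry by symbol and coordinates.
miR-132-3p: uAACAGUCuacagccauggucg
miR-212-3p: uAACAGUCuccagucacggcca
miR-137-3p: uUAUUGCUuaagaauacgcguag
miR-132-5p: aACCGUGGcuuucgauuguuac
miR-212-5p: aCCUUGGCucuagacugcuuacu
miR-137-5p: aCGGGUAUucuuggguggauaau
The 3p strands of Mir132 and Mir212 carry the same seed, AACAGUC. Of the 1738 mature mouse microRNAs in the RefSeq table, these 2 were the ones that had it. The 2 strands share their first 9 bases and 17 of 22 positions. Counted from 1 at the 5′ end, with the base of miR-132-3p first, they differ by A10C, C14U, U17C, U20C and G22A. The seed of miR-137-3p, UAUUGCU, belonged to 1 entry in the table, as did each of the 3 seeds of the 5p strands.

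The hairpins are printed next with the mature strands in capitals, since the counts were assigned to whole hairpins and do not separate the 5p from the 3p strand.
Mir132: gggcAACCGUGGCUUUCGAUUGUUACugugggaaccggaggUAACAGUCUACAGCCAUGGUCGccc
Mir212: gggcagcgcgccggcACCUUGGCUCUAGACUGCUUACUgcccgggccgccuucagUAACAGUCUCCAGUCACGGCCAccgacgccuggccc
Mir137: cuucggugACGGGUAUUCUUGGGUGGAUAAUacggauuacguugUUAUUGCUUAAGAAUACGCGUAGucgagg
The hairpin of Mir212 is GC-rich at 69.2%, a value that 13 of the 384 genes detected in both libraries (itself included) met or passed, against a median of 51.3%. The hairpins of Mir132 and Mir137 have 57.6% and 45.2% GC. The longest stretch that the Mir132 hairpin shares with any of the other annotated microRNA transcripts is 11 nt. For Mir212 it is 12 nt and for Mir137 11 nt, and Mir132 and Mir212 share at most 10 nt with each other. Mature strands of 22 or 23 nt thus have no full-length copy in another annotated hairpin. This bears on the counts, because 51.5% of the reads in replicate 1 and 46.7% in replicate 2 mapped to several places and were assigned to no gene.

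In the mm10 genome Mir212 (ENSMUSG00000065590.1) lies on chromosome 11 from 75173388 to 75173478, and Mir132 (ENSMUSG00000065537.2) on the same strand from 75173682 to 75173747. The genes are 203 nt apart, and both lie in intron 1 of the non-coding transcript of 1700016P03Rik, beginning 828 and 1122 nt after its annotated start. The nearest protein-coding genes, Ovca2 and Hic1, lie on the opposite strand, 2194 nt from Mir132 and 3868 nt from Mir212. Mir137 (ENSMUSG00000065569.2) lies on chromosome 3 from 118433857 to 118433929. It is exonic in the non-coding gene Gm26871, in exon 3 of a transcript with 3 exons and in exon 1 of a second transcript with 2. Another annotated microRNA gene, Gm24155, lies 791 nt further on the same strand and had 0 counts in replicate 1 and 1 in replicate 2.

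**Figure D1:**
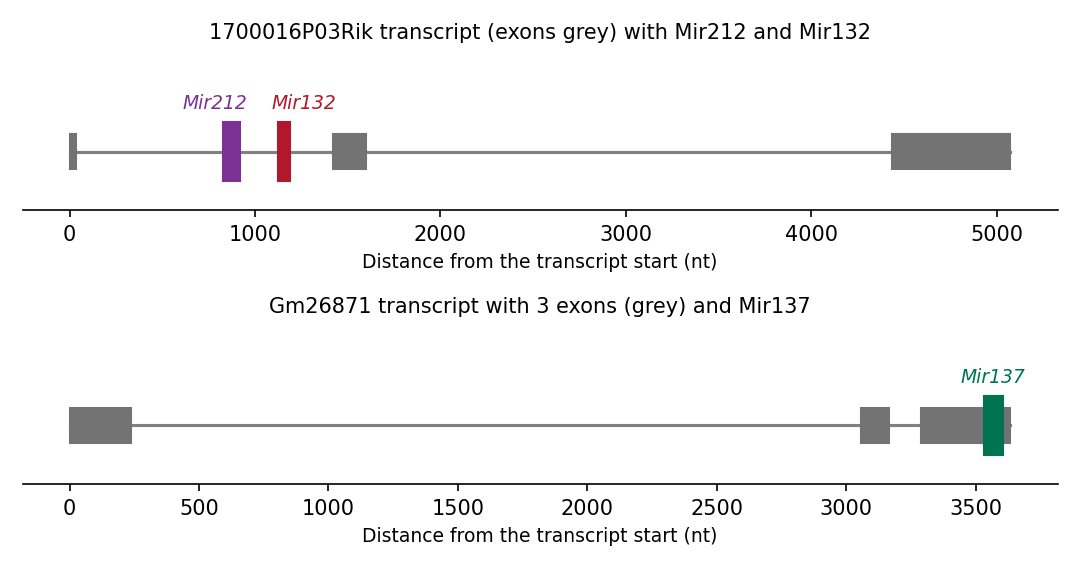
The 1700016P03Rik transcript (upper panel) and the Gm26871 transcript with 3 exons (lower panel), drawn to scale on a horizontal axis of distance from the transcript start in nucleotides. Grey boxes are exons and coloured boxes the microRNA hairpins; Mir212 and Mir132 sit 203 nt apart in the first intron, and Mir137 sits inside the last exon.

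The libraries held 3758318 and 5598792 counts on the sense strand of microRNA genes in replicates 1 and 2. Levels are given as counts per 1000000 of those (CPM), and a gene was called detected if each library had at least 10 counts of it, which held for 384 of the 2202. Of 14 other microRNA genes listed for neurons, 10 were detected, among them Mir128-1, Mir138-1 and Mir129-2. Mir124a, a neuronal microRNA with 3 gene copies, had 0 to 5 counts per copy and library, and each copy shares 32 nt with another. The liver gene Mir122 had 23.9 CPM in replicate 1 and 47.5 CPM in replicate 2. Of 6 muscle genes, 4 had no count in either library, namely Mir1a-1, Mir1a-2, Mir133a-1 and Mir133a-2. They are numbered copies, and reads that map to several places were assigned to no gene, so 0 counts do not show absence. Mir133b had 0 and 1 counts, and Mir206 was detected at 52.2 and 79.7 CPM, in replicates 1 and 2.

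Mir132 was among the microRNA genes with the most assigned counts in these libraries. Reads that mapped to several places were assigned to no gene, so genes with several copies may be counted too low. The ranks of Mir132, Mir212 and Mir137 are therefore ranks among assigned counts and may place them too high for the tissue. Mir132 had 66945 counts in replicate 1 and 86729 in replicate 2. Its level was 17812 CPM (exact 95% interval 17679 to 17947) in replicate 1 and 15491 CPM (15388 to 15593) in replicate 2, where the intervals cover counting error only. It ranked 13 of 2202 genes in each library, and the mean was 16652 ± 1642 CPM (SD, n = 2 here and for each mean ± SD), or 1.67% ± 0.164 of all counted reads. The cell of origin of a read is not known in tissue RNA, and fewer cells of a type and less RNA per cell cannot be told apart.

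Mir212 had far fewer counts than its neighbour. It was read 829 times in replicate 1 and 2733 times in replicate 2. The level was 220.6 CPM (exact 95% interval 205.8 to 236.1) in replicate 1 and 488 CPM (470.01 to 507) in replicate 2, and the intervals did not overlap. It ranked 146 in replicate 1 and 124 in replicate 2. The mean of 354 ± 189 CPM has an SD of 53.4% of the mean, against 9.86% for Mir132 and 7.23% for Mir137, so the level of Mir212 is the least certain of the 3.

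Mir137 stood slightly below Mir132. It had 48301 counts in replicate 1 and 64951 in replicate 2, with 12852 CPM (exact 95% interval 12738 to 12966) in replicate 1 and 11601 CPM (11512 to 11690) in replicate 2. It ranked 16 in replicate 1 and 17 in replicate 2, and the mean was 12226 ± 884 CPM, or 1.22% ± 0.0884 of all counted reads. The count of Mir132 was 1.39 times that of Mir137 in replicate 1 and 1.34 times in replicate 2. Mir132 was above Mir137 in both libraries, by more than either gene's counting interval.

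**Figure D2:**
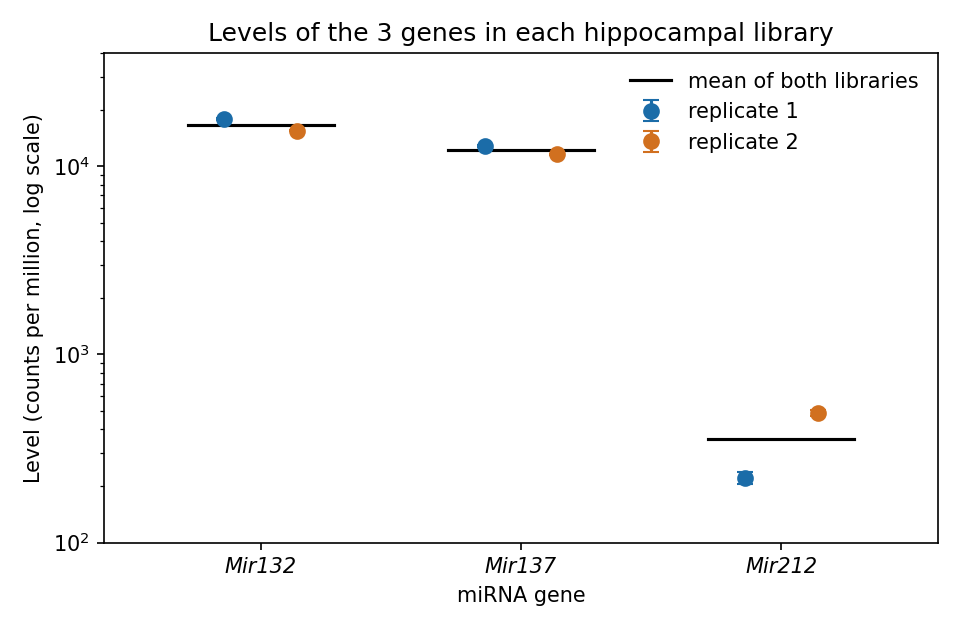
Level of each gene in CPM (vertical axis, log scale) in replicate 1 (blue) and replicate 2 (orange), with exact 95% counting intervals, which for Mir132 and Mir137 are smaller than the points, and the mean of both libraries as a black line. Mir132 and Mir137 lie between 11601 and 17812 CPM and are slightly higher in replicate 1, while Mir212 lies at 220.6 CPM in replicate 1 and 488 CPM in replicate 2.

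Levels of different genes were also set on a per-length scale, counts per kilobase of hairpin scaled to a sum of 1000000 (TPM). The mature strands are 22 or 23 nt long in all 3 genes, whereas the hairpins measure 66 nt for Mir132, 91 nt for Mir212 and 73 nt for Mir137. On that scale the mean level was 20519 ± 1875 TPM for Mir132, 317 ± 171 TPM for Mir212 and 13623 ± 887 TPM for Mir137. The order of the 3 genes was the same in each library on both scales. The per-length scale could not have changed it, because among these genes more counts went with a shorter hairpin.

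In the order of all genes by mean CPM, Mir132 stood at 12 and Mir137 at 17. Directly above Mir132 was Mir29a, known from astrocytes and other glia, at 20409 ± 1270 CPM, and the SD ranges of the 2 levels did not overlap. Below it, Mir26b at 14558 ± 7122 CPM and Mir191 at 13833 ± 2282 CPM overlapped with Mir132 in their SD ranges. Mir26b was above Mir132 in replicate 1, whereas Mir191 was below Mir132 in both libraries. Mir137 was not separated from the 2 genes above or the 2 below it, Mir151, Mir128-1, Mir23a and Mir126a, by more than the SD. Within each library, however, Mir151 was above Mir137, and Mir23a and Mir126a were below it. Mir128-1 was below Mir137 in replicate 1 and above it in replicate 2. Mir212 stood at 132, followed by Mir672 at 351 ± 9.81 CPM and Mir134 at 341 ± 8.78 CPM, and its SD range overlapped with both.

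Genes most like each member were taken as the 4 with the smallest Euclidean distance in log2(CPM + 1) over the 2 libraries, which describes level more than pattern. For Mir132 these were Mir191, Mir151, Mir29a and Mir128-1, at distances of 0.40 to 0.56. For Mir137 they were Mir23a, Mir126a, Mir151 and Mir191, at 0.14 to 0.28. Mir212 was nearest to Mir673, Mir326, Mir101a and Mir667, at 0.24 to 0.42. Mir101a came closest to the imbalance of Mir212, at 181 CPM in replicate 1 against 399 CPM in replicate 2.

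The 2 libraries were compared gene by gene to see how far each member's level varied between replicates. Folds are on the trimmed mean of M-values (TMM) scale, which sets replicate 1 higher relative to replicate 2 by a factor of 1.23 than CPM does. For each of the 384 detected genes the counts were put to a two-sided exact binomial test, with Benjamini-Hochberg adjustment at 0.05. The test compares these libraries beyond counting error and says nothing of a condition. The test called 65.9% of the genes, 33.9% as higher in replicate 1 and 32% as higher in replicate 2, so a call by itself is common here.

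The binomial test called Mir132, Mir212 and Mir137, in different directions. Mir132 was 1.41-fold higher in replicate 1 (counting interval 1.40 to 1.43; log2 0.50, counting SE 0.0074). Mir137 was 1.36-fold higher in replicate 1 (1.34 to 1.38; log2 0.44, counting SE 0.0087). The exact binomial test gave adjusted p-values of at most 1e-300 for both. Mir212 was 1.80-fold higher in replicate 2 (1.67 to 1.95; log2 of replicate 1 over replicate 2 -0.85, counting SE 0.057; adjusted p = 5.96e-54, exact binomial test).

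Differences of this size were common among the detected genes. The median absolute difference of the 384 genes was 1.36-fold, and 188 genes differed more than Mir137, 165 more than Mir132 and 84 more than Mir212. The biological coefficient of variation, from the edgeR common dispersion of the group, was 34.4%. With that dispersion the edgeR exact test called none of Mir132, Mir212 and Mir137 (unadjusted p = 0.485, 0.238 and 0.533). Each arm held 1 library and the dispersion came from the same 2 libraries, so this outcome does not show whether the levels differed. The edgeR exact test called 2 of 384 genes (0.521%), Mir26a-1 and Mir26a-2, and 18 had an unadjusted p below 0.05.

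**Figure D3:**
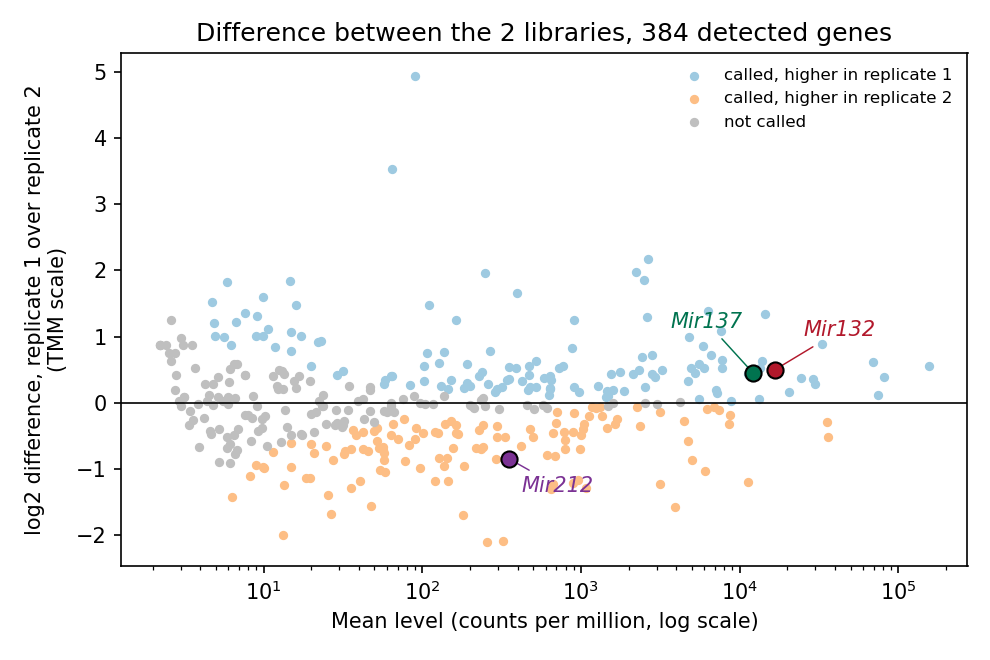
The log2 difference of replicate 1 over replicate 2 on the TMM scale (vertical axis) against mean level in CPM (horizontal axis, log scale) for the 384 detected genes, coloured by the binomial call. Mir132 and Mir137 lie above 0 at log2 0.50 and 0.44, and Mir212 lies below 0 at -0.85, all 3 within the spread of the other genes.

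The proportion of Mir132 to Mir212 reads is a value within a library that needs no scaling. In replicate 1 the pair had 67774 counts, of which 98.78% (exact 95% interval 98.69 to 98.86%) were Mir132 and 1.22% (1.14 to 1.31%) were Mir212. In replicate 2 it had 89462 counts, of which 96.95% (96.83 to 97.06%) were Mir132 and 3.05% (2.94 to 3.17%) were Mir212. The intervals did not overlap. Mir132 outnumbered Mir212 by 80.8 to 1 in replicate 1 and by 31.7 to 1 in replicate 2, and these ratios differ 2.54-fold (log2 1.35, counting SE 0.058). The sum of both genes, which share the 3p seed, was 18033 CPM in replicate 1 and 15979 CPM in replicate 2.

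Other neighbouring microRNA genes were listed the same way, to place that ratio. This comparison was chosen after the values of Mir132 and Mir212 had been seen. Among detected genes there were 107 pairs of neighbours on the same strand up to 10 kb apart, some of which share a gene. In the median pair the count ratio changed 1.51-fold between the libraries, and 17 pairs changed more than the Mir132 and Mir212 pair. The more abundant gene of the median pair had 5.42 times the mean level of its partner. For Mir132 over Mir212 it was 47.0 times, and 16 pairs were more uneven. In 64 pairs (59.8%) the 2 genes differed between libraries in opposite directions on the TMM scale, as Mir132 and Mir212 did.

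**Figure D4:**
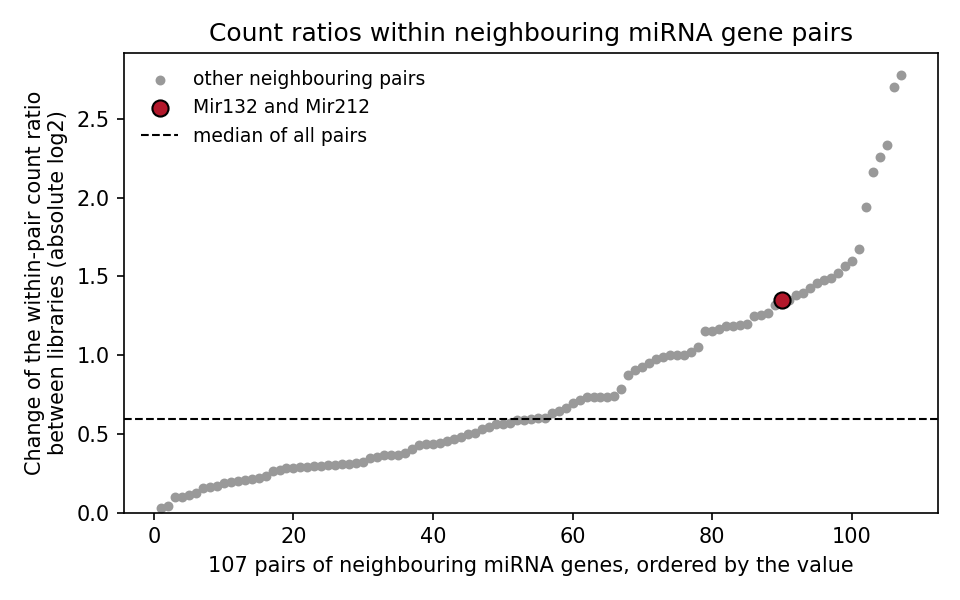
Absolute log2 change between replicate 1 and replicate 2 of the count ratio within each of 107 pairs of neighbouring microRNA genes (vertical axis), ordered from the smallest to the largest (horizontal axis). The Mir132 and Mir212 pair (red) is at 1.35, above the median of 0.59 (dashed line) and below 17 other pairs.

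A list of 33 other microRNA genes tied to neuronal activity or synaptic plasticity gives the company of these genes. Of its names, 31 matched a symbol, and Mir92a-1 and Mir92a-2 did not. The annotation holds the similar symbols Mir92-1 and Mir92-2, which were not counted with the list. Mir92-1 had 712 counts in replicate 1 and 1641 in replicate 2 and was called higher in replicate 2. Mir92-2 had 25 and 52 and was not called. The list mixes neuronal with glial, immune and sensory genes, and 25 of the 31 were detected. Its highest members were Mir29a (20409 ± 1270 CPM), Mir191 (13833 ± 2282 CPM), Mir128-1 (13308 ± 1589 CPM), which is enriched in neurons and dampens excitability, Mir324 (5564 ± 653.5 CPM) and Mir335 (4951 ± 543 CPM). On the CPM scale 1 of the 31 had a higher mean level than Mir132, 3 than Mir137 and 14 than Mir212. On the per-length scale it was 0, 3 and 15. The change from 1 to 0 comes from hairpin length, 66 nt for Mir132 and 88 nt for Mir29a. It does not show that Mir132 was the higher of the 2. The 31 include numbered copies of Mir124a, Mir9, Mir128, Mir138, Mir181a, Mir219a and Mir135a. Reads of such copies may have mapped to several places and been assigned to no gene, so these counts of higher genes may be too low. Mir134, which limits dendritic spine size in rodent neurons, had 347 CPM in replicate 1 and 335 CPM in replicate 2, between the 2 values of Mir212.

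Several listed genes with several copies were read at low levels. Mir124a-1 had 2 counts in replicate 1 and 5 in replicate 2, Mir124a-2 had 0 and 2, and Mir124a-3 had none in either. Mir9-3 averaged 138 ± 31.3 CPM, Mir9-1 14.7 ± 10.1 CPM and Mir9-2 1.38 ± 0.686 CPM. These copies share 26 to 33 nt with another hairpin, unlike Mir132, Mir212 and Mir137 with 11 or 12 nt, so their counts cannot be set beside those of the 3 genes as tissue levels.

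Between the libraries, 21 of the 25 detected genes of the list were called by the exact binomial test (84%), beside 65.9% of all genes tested. Among genes with 100 or more counts in both libraries, 19 of 21 listed genes and 207 of all 242 were called. The higher share of the list at the lower minimum is therefore not read as a trait of the list. Of the 21 called among the 25, 15 were higher in replicate 1 and 6 in replicate 2 by TMM-scaled counts. The median log2 difference of the list was 0.24, against -0.01 over all genes tested. On the total-count (CPM) scale 9 were higher in replicate 1 and 12 in replicate 2, and that scale shifts the median of all genes to -0.31 and calls 70.6% of them, 19.8% higher in replicate 1 and 50.8% in replicate 2. The direction of the list therefore depends on the scale. The opposite directions of Mir132 and Mir212 did not, as both held on the TMM, DESeq2 size-factor and total-count scales.

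**Figure D5:**
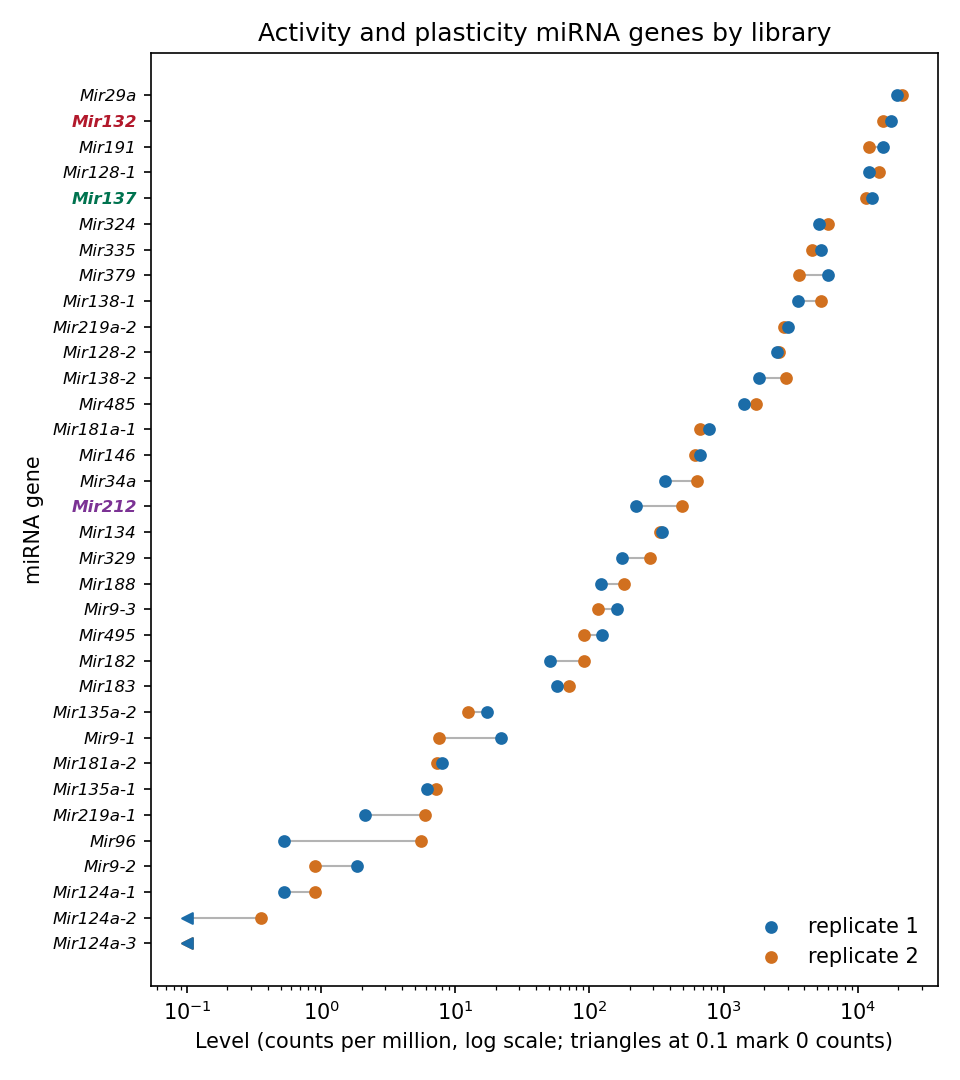
Level in CPM (horizontal axis, log scale) of Mir132, Mir212 and Mir137 (coloured names) and 31 other activity and plasticity genes (rows), in replicate 1 (blue) and replicate 2 (orange). Mir132 and Mir137 are near the top of the order, below Mir29a at 20409 CPM, and Mir212 is beside Mir134 in the middle.

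Markers of cell types in the tissue also differed between the libraries. Their sums are given in CPM, and the ratios of the sums depend on the scale. On the TMM scale, replicate 1 over replicate 2 was 0.93 for neuron and 1.64 for endothelial and mural genes. For choroid plexus and ependyma genes it was 0.82, and for all genes tested 1.23. Summed levels of the other neuron genes were 22253 CPM in replicate 1 and 29306 CPM in replicate 2. Of the 10 detected, the binomial test called 4 in favour of replicate 1 and 6 in favour of replicate 2. Over all 384 genes tested, 33.9% were called in favour of replicate 1 and 32% in favour of replicate 2. On the total-count scale the neuron counts were 2 and 8, where all genes tested had 19.8% called higher in replicate 1 and 50.8% in replicate 2. For endothelial and mural genes the sums were 22046 CPM in replicate 1 and 16510 CPM in replicate 2, with 3 of 3 detected called higher in replicate 1 on both scales (33.9% of all genes tested by TMM and 19.8% by total counts). The choroid plexus and ependyma genes summed to 2122 CPM and 3174 CPM in replicates 1 and 2, with 6 of 7 detected called higher in replicate 2 on the TMM scale (32% of all genes tested) and 7 on the total-count scale (50.8% of all genes tested).

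The glial and blood lists were smaller or mixed. For astrocyte genes the sums were 25972 CPM (replicate 1) and 25769 CPM (replicate 2). The sums in replicates 1 and 2 were 6092 and 9710 CPM for oligodendrocyte genes, 3746 and 3444 CPM for microglia and leukocyte genes, and 63.3 and 95.7 CPM for erythroid genes. On the TMM scale the sum in replicate 1 over that in replicate 2 was 1.24 for astrocyte and 0.77 for oligodendrocyte genes. It was 1.34 for microglia and leukocyte genes and 0.81 for erythroid genes. By TMM, 33.9% of all 384 genes tested were called in favour of replicate 1 and 32% in favour of replicate 2. By total counts these shares were 19.8% and 50.8%. Of 6 detected astrocyte genes, 4 were called in favour of replicate 1 and 2 in favour of replicate 2 by TMM, but 2 and 3 by total counts. Of 6 detected microglia and leukocyte genes, 4 by TMM and 3 by total counts were called in favour of replicate 1 and none in favour of replicate 2. The 2 detected oligodendrocyte genes were called 1 each way on both scales. All 3 erythroid genes were detected, with 1 called by TMM and 2 by total counts, in favour of replicate 2. The part of these shifts in the differences of Mir132, Mir212 and Mir137 was not tested.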

How the data were processed

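The deposited tables give raw, unnormalized counts of reads for each microRNA gene, below 4 summary lines. Per the file headers and notes deposited with the tables, the authors made the counts on mm10 with GENCODE annotation M21. No aligner or counting tool is named (not given in the sources used here). The stranded column that held more counts served as sense; the 3 genes had 0 counts in the other, and their unstranded counts equal the sense counts. Summary lines (64.5% and 65.3% of reads) stayed out of library sizes and tests.

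GENCODE M21 named all 2202 identifiers. At 0 counts, a level of up to 3 counts is allowed (0.798 CPM in replicate 1, 0.536 CPM in replicate 2). Reads carry no molecular identifiers, so intervals and floors cover counting error only. Scaling used edgeR 4.0.16 (TMM) and DESeq2 1.42.0 (size factors, as an alternative), in R 4.3.3; binomial tests and Clopper-Pearson intervals used SciPy 1.17.1. The binomial test was checked on counts simulated with counting error only, and the edgeR dispersion on counts with added spread between libraries. How often the binomial test makes false calls under such spread was not checked. Alternatives were other scalings, count minimums, tests, denominators, pseudocounts, the unstranded column and each replicate left out.

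Members and lists were chosen with earlier results of these data known. Genes named are the members, their 4 nearest genes in level, their neighbours in order, position or seed, the 5 highest genes of the list, the Mir124a and Mir9 copies, and Mir134; other markers and Mir26a copies were named after their values were seen.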

Additional observations from a re-analysis of the deposited data

How the results depend on the processing

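No paired analysis was possible because the series has 1 group. The mean levels of Mir132, Mir212 and Mir137 were 5848, 124 and 4293 per 1000000 reads of the library, and 26671, 562 and 19574 CPM without the let-7 genes in the denominator. On the per-length scale Mir132 was at 20519 and Mir137 at 13623 TPM, and in the unstranded column Mir137 was at 13235 CPM. With 1 replicate left out, the levels ranged from 15491 to 17812 CPM for Mir132, 220.6 to 488 CPM for Mir212 and 11601 to 12852 CPM for Mir137, and the share of Mir132 from 96.95 to 98.78%. With 2 libraries these are the values of the single libraries, so they add no further check. Of 21 alternatives run on the differences of the 3 genes between libraries, 18 kept the call and direction. Most of the 18 reuse the same counts on the same or nearly the same scale, so they could hardly differ. Of those settings, mainly the DESeq2 and total-count scalings changed the fold. The 3 alternatives that lost the call are the edgeR exact test with the common dispersion, at log2 0.50 for Mir132, -0.85 for Mir212 and 0.44 for Mir137. That test adds the spread between libraries, estimated from the same 2 libraries, to counting error, so a lost call shows neither equal levels nor a weaker difference. It called 2 genes in place of 253, and 0 of the 25 listed genes in place of 21, with 1 at an unadjusted p below 0.05. Over all alternatives the fold ranged from 1.15 to 1.43 for Mir132, 1.78 to 2.21 for Mir212 and 1.11 to 1.38 for Mir137. With total counts in place of TMM, 76 calls favoured replicate 1 and 195 favoured replicate 2. Neighbouring pairs, limited to 1 kb after seeing the data, left 11 of 65 pairs with a larger change than Mir132 and Mir212, and a minimum of 100 counts left 13 of 78. Pseudocounts of 0.1 and 10 gave the same 12 nearest genes. With 2 libraries, the SD of each level is itself poorly known.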
